A study of Homo sapiens with 8 samples.

Results

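Homologous recombination and Fanconi anemia (FA) repair was followed through 39 genes in 2 human liver cancer cell lines. Levels were compared before and after the cells acquired resistance to sorafenib. The study describes both lines as hepatocellular carcinoma (HCC). The genes were taken by symbol, and all 39 matched 1 of the 63241 Ensembl gene identifiers that the libraries list. HepG2 WT and Huh7 WT were the sorafenib-sensitive control cells, and HepG2 SR and Huh7 SR were derived from each line by exposure to a gradient of sorafenib, a multikinase inhibitor. The SR label also names sorafenib as the treatment, and whether drug was present at harvest is not given in the sources used here. Each of the 4 groups had 2 mRNA sequencing libraries, 8 in all, and every value is an FPKM, a level scaled by the authors for transcript length and library size. Whether the 2 libraries of a group came from separate cultures is not stated. The p-values therefore measure the spread between these libraries, which need not be that between cultures. Each SR line is a single derived line, which limits it as a model of resistance.

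Homologous recombination restores a broken chromosome by copying an intact sister chromatid, and it is therefore active in S and G2 phase. Broken ends are sensed and resected, BRCA1 and BRCA2 complexes load a recombinase on the exposed strand, and the joined molecules are afterwards dissolved or cut. The FA pathway recognises crosslinks between DNA strands: a core complex places ubiquitin on FANCD2 and FANCI, and recombination completes the repair. Many of these genes are transcribed when cells enter S phase, so their RNA levels also follow proliferation.

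The libraries did not follow the labelled cell line. Clustering of log2(FPKM + 1) by Pearson's r, taken over genes that are themselves no replicates, gave 3 expression profiles. The first joined 3 HepG2 libraries (both WT and SR replicate 1) with the replicate 2 libraries of Huh7 WT and Huh7 SR. The second was HepG2 SR replicate 2 alone, and the third was the replicate 1 library of each Huh7 group. Within a profile r was 0.914 to 0.977 (11 pairs), and between profiles it was 0.731 to 0.846 (17 pairs). The highest r of all 28 pairs joined libraries of different labelled lines, HepG2 SR replicate 1 and Huh7 SR replicate 2. ALB, the albumin gene, had 2891 FPKM in Huh7 SR replicate 2, against 12 to 604 in the other 3 Huh7 libraries and 2139 to 4713 in HepG2. APOA1, APOB, TTR, SERPINA1, TF and AFP were also higher in that library than in the other 3 of Huh7, but FGB and HNF4A were not. FGB had 380 and 327 FPKM in the replicate 1 libraries of Huh7, 128 in HepG2 SR replicate 2 and 0.386 to 4.51 in the other 5. HNF4A had 22.2 to 68.5 in all 8. A swap or mixing of samples was not tested, and every value given for HepG2, Huh7 or their difference holds for libraries so labelled. The labels do not separate the libraries into batches. Hepatocyte genes were present in all 8 libraries, with 8 or 9 of 9 markers at an FPKM of at least 1, while their summed FPKM was 635 to 1108 in both Huh7 WT libraries and Huh7 SR replicate 1 and 4521 to 7668 in the other 5. The fibroblast and endothelial lists had at most 1 marker at that level in any library, and the leukocyte list had 2 or 3 of 5. PTPRC and CD3E were at or near 0 in every library, whereas LYZ had 224 and 280 FPKM in HepG2 WT, 890 and 816 in HepG2 SR, 57.1 and 44.2 in Huh7 WT and 79.2 and 1058 in Huh7 SR, and CD68 3.94 to 29.1. The part of LYZ and CD68 in the results was not tested. Estimated depth, from a weak fit, ranged from 28.3 to 55.9 M fragments. Each library listed 12829 to 13386 genes at an FPKM of at least 1. The lowest estimated depth was that of HepG2 WT replicate 2, which listed 38276 genes above 0, against 27188 to 29071 in the other 7. Groups are given below by their labels. Values in every library are shown for a selection of genes, and the others have only ranges or fold changes.

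Across the 39 repair genes, levels were on balance higher in SR than in WT cells, and the size of that difference rested on a pair of WT libraries. The median log2 fold change of FPKM + 1 was 0.57 in HepG2 (32 of 39 genes above 0) and 0.39 in Huh7 (29 of 39), against -0.03 and -0.05 over all 15173 genes tested. For the mean of both lines it was 0.50 (30 of 39), against -0.05 over all genes. The median FPKM of the 39 genes was 2.81 and 5.55 in HepG2 WT replicates 1 and 2 and 6.54 and 7.91 in HepG2 SR. It was 6.46 and 3.39 in Huh7 WT replicates 1 and 2 and 8.35 and 5.26 in Huh7 SR. HepG2 WT replicate 1 and Huh7 WT replicate 2 were thus lowest, while HepG2 WT replicate 2 and Huh7 WT replicate 1 lay among the SR libraries. For 20 of the 39 genes these were the 2 lowest of all 8 libraries, as they were for 5.75% of all genes tested, a pattern chosen after its values were seen. Without these 2 libraries, also chosen afterwards, the median was 0.17 in HepG2, 0.13 in Huh7 and 0.16 for the mean of both lines.

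**Figure D1:**
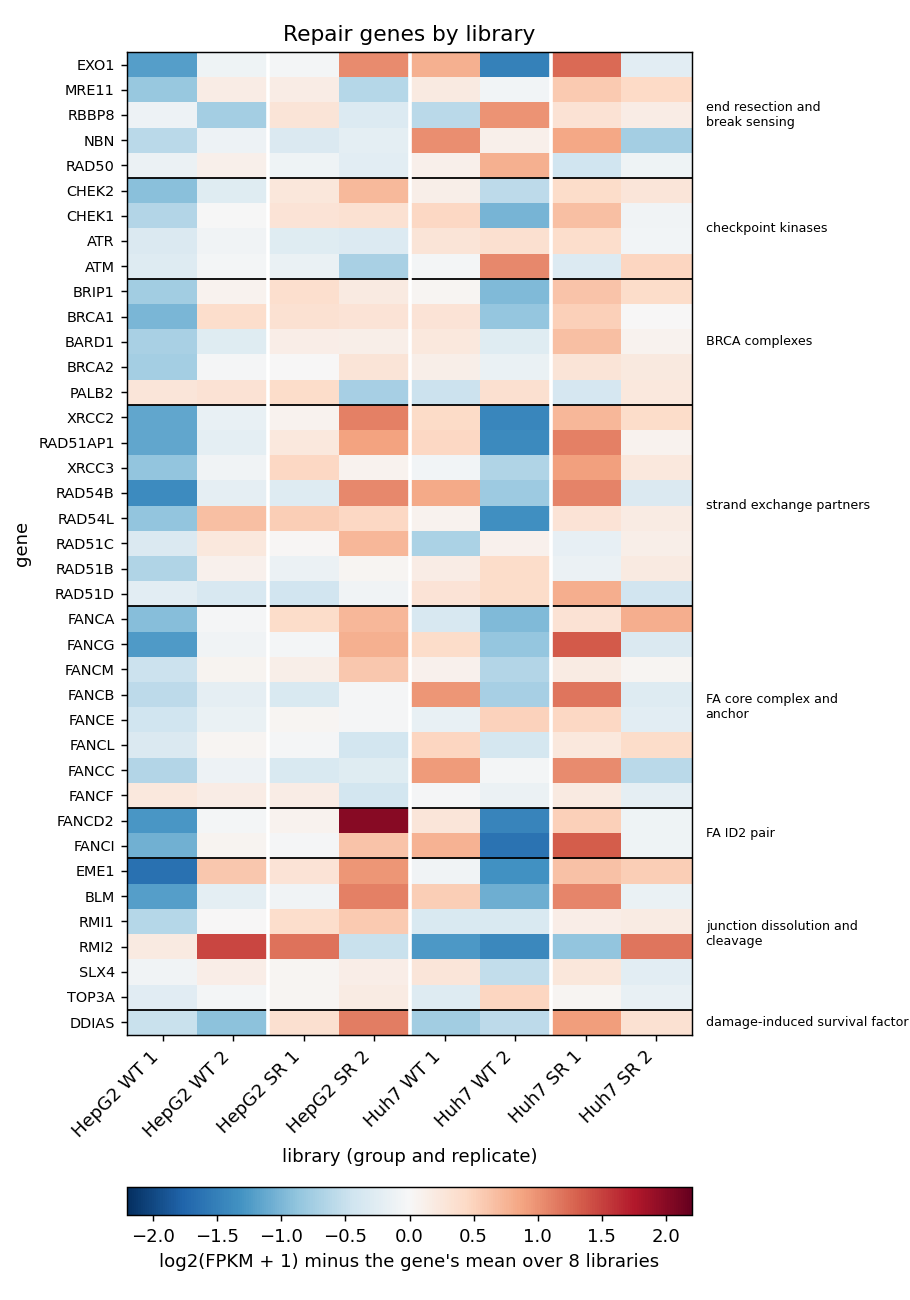
Heat map of the 39 repair genes (rows, grouped by role) in the 8 libraries (columns); colour is log2(FPKM + 1) minus the gene's mean over the 8 libraries, blue lower and red higher. HepG2 WT 1 and Huh7 WT 2 are blue for most genes of strand exchange, the ID2 pair and junction processing, and the FANCD2 value in HepG2 SR 2 (34.9 FPKM) is the deepest red.

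Genes were called at the study's thresholds, a log2 fold change of at least 0.5 in either direction and an unadjusted p under 0.05, here by limma on log2(FPKM + 1). DDIAS and CHEK2 were called higher in HepG2 SR, 2 of 39 genes, where 0.877% of all genes were called higher. DDIAS and FANCA were called higher in Huh7 SR, again 2 of 39, where 0.942% of all genes were. For the mean of both lines DDIAS, FANCA, CHEK2, XRCC3 and RMI1 were called higher, 5 of 39, where 1.9% of all genes were. No repair gene was called lower, against 1.27% of all genes in HepG2, 0.923% in Huh7 and 2.03% for the mean of both lines. After Benjamini-Hochberg adjustment over all 15173 genes limma left 0 repair genes at an adjusted p under 0.05, against 2, 2 and 5 at an unadjusted p under 0.05, and the smallest adjusted p was 0.956 in HepG2 and 0.998 for the mean of both lines. Without HepG2 WT replicate 1 and Huh7 WT replicate 2, DDIAS alone was called for the mean of both lines and 0 of 39 genes in either line. Leaving out 1 library at a time gave 2 genes, DDIAS and FANCA, for the mean of both lines without HepG2 WT replicate 1, HepG2 SR replicate 2, Huh7 WT replicate 2 or Huh7 SR replicate 1, 8 without HepG2 WT replicate 2, and 14 without Huh7 WT replicate 1. A further fit took the expression profile as a term. HepG2 SR replicate 2 is alone in its profile, so in HepG2 this fit rested on SR replicate 1 only. The log2 fold changes there were 1.05 for DDIAS and 0.83 for CHEK2, the same as without HepG2 SR replicate 2. In Huh7 that fit called 7 of 39 genes, BRIP1, DDIAS, FANCA, RAD51AP1, RMI2 and XRCC3 higher and RAD50 lower. It also called 1300 of all 15173 genes in Huh7, against 283 in the main fit. The mean of both lines includes that HepG2 value. Its log2 fold changes in this fit were 1.17 for DDIAS, 1.045 for FANCA, 0.93 for XRCC3, 0.69 for CHEK2 and 0.60 for RMI1.

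The overlap of libraries needs no model of the spread. All 4 SR libraries lay above all 4 WT libraries for 6 of the 39 genes, DDIAS, FANCA, CHEK2, XRCC3, RMI1 and BRIP1, and this held for 1.52% of all genes tested. None of the 39 had all 4 SR libraries below all 4 WT libraries, as 2.17% of all genes did. In HepG2 both SR libraries exceeded both WT libraries for 18 of 39 genes (18.1% of all genes) and lay below them for 0 (20.1%). In Huh7 they were above for 11 (9.06% of all genes) and below for 1, RAD50 (12.9%).

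**Figure D2:**
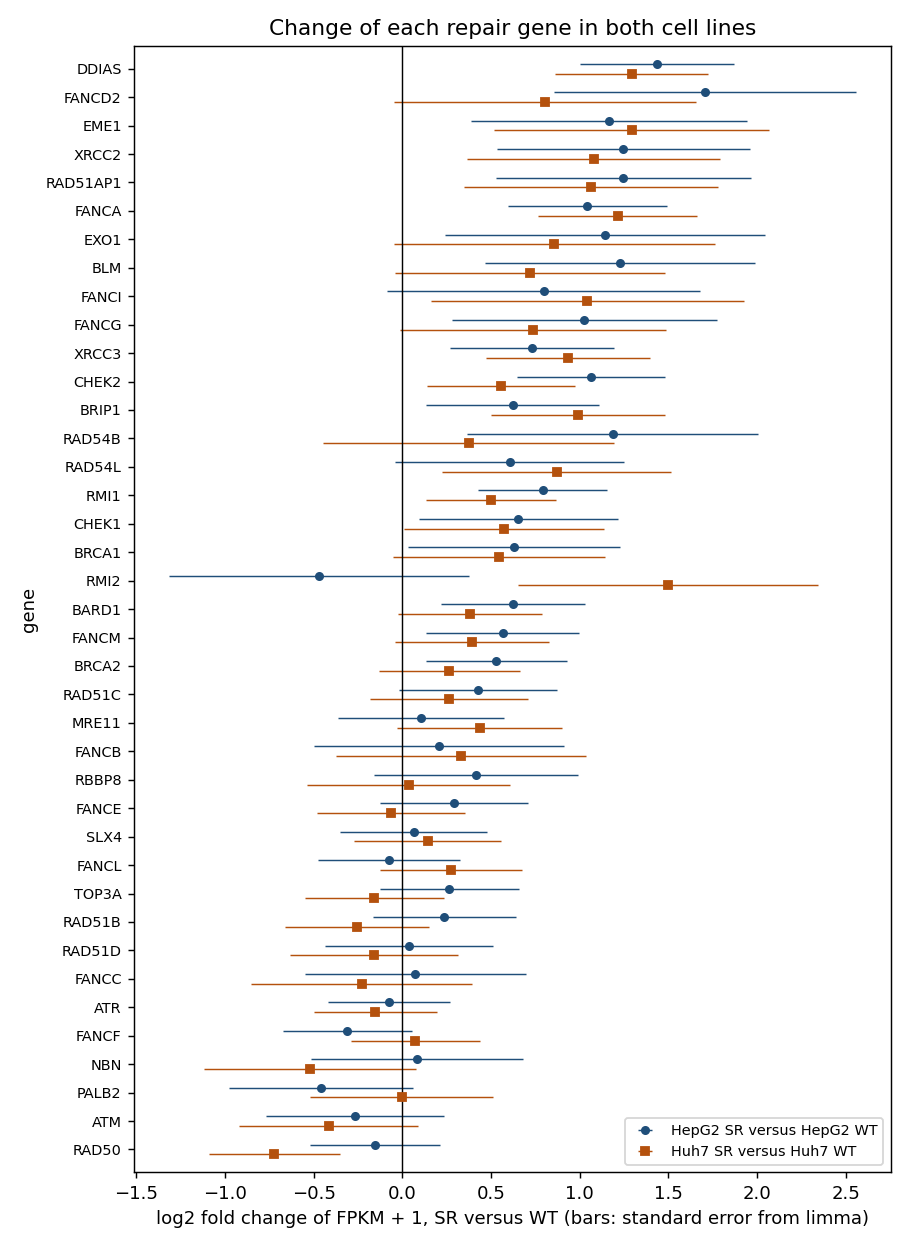
Log2 fold change of FPKM + 1, SR versus WT, of each repair gene in HepG2 (circles) and Huh7 (squares), ordered by the mean of both; bars are the standard errors from limma. DDIAS, at 1.44 and 1.29, heads the order, RAD50, at -0.15 and -0.72, ends it, and RMI2 has opposite signs in the 2 lines.

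The 4 genes with the largest mean change were DDIAS, FANCD2, EME1 and XRCC2, and their promoters are shown because cell-cycle genes commonly carry short E2F-type, NF-Y-type or CHR-type strings near the start site. RefSeq windows (GRCh38.p14) from 250 bases before to 50 bases after a transcript start were available for 35 of the 39 genes, and not for NBN, RAD54B, FANCI and RMI2. The strings searched on both strands were TTCCCGC and TTGGCGC (E2F-type), CCAAT (NF-Y-type) and TTTGAA and TTCGAA (CHR-type), and a gene counted if any of its windows held one. Capitals mark every match, written on the strand of the gene, so that a match on the other strand appears as its reverse complement. The windows are chr11:82901486-82901785 (plus strand) for DDIAS, chr3:10026187-10026486 (plus strand) for FANCD2, chr17:50372979-50373278 (plus strand) for EME1 and chr7:152676092-152676391 (minus strand) for XRCC2.
DDIAS: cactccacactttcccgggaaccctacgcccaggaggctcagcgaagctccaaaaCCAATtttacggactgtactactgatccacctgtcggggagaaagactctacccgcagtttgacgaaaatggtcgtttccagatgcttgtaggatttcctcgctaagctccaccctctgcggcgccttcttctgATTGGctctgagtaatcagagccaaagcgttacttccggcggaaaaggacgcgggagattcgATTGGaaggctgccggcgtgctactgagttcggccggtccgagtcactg
FANCD2: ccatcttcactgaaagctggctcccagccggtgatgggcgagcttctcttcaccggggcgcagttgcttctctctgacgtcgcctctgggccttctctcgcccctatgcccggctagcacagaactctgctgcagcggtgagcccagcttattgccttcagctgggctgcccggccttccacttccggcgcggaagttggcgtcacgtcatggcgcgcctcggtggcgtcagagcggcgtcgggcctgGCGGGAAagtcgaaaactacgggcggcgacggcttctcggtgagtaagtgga
EME1: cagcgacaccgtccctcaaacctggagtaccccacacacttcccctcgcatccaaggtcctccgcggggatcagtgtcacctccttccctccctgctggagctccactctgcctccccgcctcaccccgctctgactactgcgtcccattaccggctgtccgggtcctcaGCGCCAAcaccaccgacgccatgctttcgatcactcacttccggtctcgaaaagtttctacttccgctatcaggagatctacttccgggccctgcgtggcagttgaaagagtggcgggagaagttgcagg
XRCC2: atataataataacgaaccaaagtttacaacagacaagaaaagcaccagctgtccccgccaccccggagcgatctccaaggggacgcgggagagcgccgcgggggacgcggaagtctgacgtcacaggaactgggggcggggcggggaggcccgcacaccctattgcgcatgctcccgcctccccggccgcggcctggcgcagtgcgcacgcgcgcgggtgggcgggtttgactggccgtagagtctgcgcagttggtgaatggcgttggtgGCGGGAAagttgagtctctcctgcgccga
The DDIAS window held 3 CCAAT matches and no E2F-type string. FANCD2 and XRCC2 each held 1 TTCCCGC, and EME1 held 1 TTGGCGC.

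Over the 35 genes TTCCCGC was present in 16 (45.7%), against 7.82% of all 27305 genes with a window, and TTGGCGC in 3 (8.57%), against 3.66%. Either E2F-type string was present in 18 of 35 genes (51.4%), against 11.0% of all genes. CCAAT was found in 16 of 35 (45.7%, against 39.7%), TTTGAA in 3 (8.57%, against 18.2%) and TTCGAA in 0 (against 1.82%). The genes with TTCCCGC were BARD1, BLM, BRCA1, BRIP1, FANCC, FANCD2, FANCE, FANCG, FANCL, RAD51AP1, RAD51D, RAD54L, RMI1, TOP3A, XRCC2 and XRCC3. The median log2 fold change for the mean of both lines was 0.77 in the 18 genes with an E2F-type string (16 above 0) and 0.27 in the 17 without (11 above 0), given as a description. A match says only that these letters occur in the window.

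Genes that sense and resect broken ends were not called in SR versus WT, and single libraries stood apart for several of them. MRE11, RAD50 and NBN form the complex that binds a DNA end, RBBP8 (CtIP) stimulates its nuclease, and EXO1 extends the resection. The median log2 fold change of the 5 genes was 0.23 for the mean of both lines, and 0 of 5 were called. RAD50 (chr5:132556019-132646344, plus strand) had 9.46 and 11.3 FPKM in HepG2 WT replicates 1 and 2 and 9.75 and 8.70 in HepG2 SR. Huh7 held 11.4 and 18.6 in WT and 7.39 and 9.65 in SR. Both Huh7 SR libraries lay below both Huh7 WT libraries, the only such case among the 39 genes. The fold change of RAD50 in Huh7 was -0.72 ± 0.37 (log2, SE), with an unadjusted p of 0.0917 from limma. RAD50 was called lower in Huh7 without Huh7 WT replicate 1 (-1.05) and with the expression profile as a term (-0.72).

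NBN (chr8:89933336-90003228, minus strand), the subunit that recruits ATM, had 5.98 and 8.71 FPKM in HepG2 WT replicates 1 and 2 and 7.44 and 8.01 in HepG2 SR. The Huh7 levels were 20.4 and 10.3 in WT and 17.9 and 5.25 in SR. The replicate 1 libraries of Huh7 were the highest of all 8, and Huh7 SR replicate 2 was the lowest, so the groups overlapped. EXO1 had its lowest values, 1.43 and 1.0 FPKM, in HepG2 WT replicate 1 and Huh7 WT replicate 2, and its highest, 10.5 and 12.3, in HepG2 SR replicate 2 and Huh7 SR replicate 1. RBBP8 ranged from 5.55 to 20.8 FPKM and MRE11 from 3.53 to 11.0. RBBP8, like RAD50, was highest in Huh7 WT replicate 2, a library in which EXO1 was lowest.

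Among the 4 checkpoint kinases CHEK2 was called higher in SR cells. ATM answers double-strand breaks and acts through CHEK2, whereas ATR answers single-stranded DNA at stalled forks and acts through CHEK1. CHEK2 (ENSG00000183765, chr22:28687743-28742422, minus strand) had 5.83 and 9.77 FPKM in HepG2 WT replicates 1 and 2 and 14.2 and 20.1 in HepG2 SR. Its Huh7 values were 13.2 and 7.60 in WT and 16.0 and 14.5 in SR. All SR libraries exceeded all WT libraries, although Huh7 WT replicate 1, at 13.2, came close to the lowest SR library, at 14.2. The group means were 7.80 ± 2.78 and 17.1 ± 4.12 FPKM (SD, n = 2) in HepG2 and 10.4 ± 3.93 and 15.3 ± 1.02 in Huh7. In HepG2 the log2 fold change of CHEK2 was 1.06 ± 0.42 (SE), with an unadjusted p of 0.0392 from limma, and 0.56 ± 0.42 in Huh7, with an unadjusted p of 0.224. Over both lines it averaged 0.81 ± 0.29, with an unadjusted p of 0.0294 from limma. That call was lost without HepG2 WT replicate 1 (0.65), HepG2 SR replicate 2 (0.69), Huh7 WT replicate 2 (0.63), Huh7 SR replicate 1 (0.78) or Huh7 SR replicate 2 (0.84). The HepG2 call was lost without HepG2 WT replicate 1 (0.73), HepG2 SR replicate 2 (0.83) or either Huh7 SR library (1.06).

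CHEK1 (chr11:125625136-125676255, plus strand) had 7.71 and 12.6 FPKM in HepG2 WT replicates 1 and 2 and 15.9 and 16.3 in HepG2 SR. Huh7 WT had 17.8 and 5.76 and Huh7 SR had 20.7 and 11.9. The HepG2 groups did not overlap, but Huh7 WT replicate 1 exceeded Huh7 SR replicate 2. ATM (chr11:108222484-108369102, plus strand) had 7.65 and 9.24 FPKM in HepG2 WT and 8.56 and 5.41 in HepG2 SR, and 9.21 and 20.8 in Huh7 WT and 7.50 and 13.7 in Huh7 SR. ATM was highest in Huh7 WT replicate 2, in which CHEK1 was lowest. The log2 fold change for the mean of both lines was 0.61 ± 0.40 for CHEK1, -0.34 ± 0.35 for ATM and -0.11 ± 0.24 for ATR (SE), and none was called. Leaving out Huh7 WT replicate 2 moved the Huh7 value of ATM from -0.42 to 0.13, and that of CHEK1 from 0.57 to -0.16. ATR stayed between 3.87 and 7.02 FPKM in all libraries.

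The BRCA complexes comprised BRCA1 and its partner BARD1, the helicase BRIP1, the recombinase loader BRCA2 and PALB2, which links both. The median log2 fold change of the 5 genes was 0.50 for the mean of both lines, and 0 of 5 were called. BRCA1 (chr17:43044295-43170245, minus strand) had 2.81 and 9.06 FPKM in HepG2 WT replicates 1 and 2 and 8.67 and 8.47 in HepG2 SR. In Huh7 it had 8.44 and 3.24 in WT and 10.1 and 6.69 in SR. In each line 1 WT library was low and the other lay at the level of the SR libraries. BRCA1 had a log2 fold change of 0.59 ± 0.42 (SE) for the mean of both lines, and without HepG2 WT replicate 1 and Huh7 WT replicate 2 it was -0.05.

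BRCA2 (chr13:32315474-32400266, plus strand) had 0.797 and 1.95 FPKM in HepG2 WT replicates 1 and 2 and 2.02 and 2.66 in HepG2 SR, and 2.29 and 1.71 in Huh7 WT and 2.67 and 2.51 in Huh7 SR. Its groups did not overlap within either line, at differences of 0.53 ± 0.40 and 0.27 ± 0.40 (log2, SE) that were not called. BRIP1 had 1.35 and 3.21 FPKM in HepG2 WT, 4.13 and 3.56 in HepG2 SR, 3.11 and 1.02 in Huh7 WT and 5.18 and 4.29 in Huh7 SR. All 4 SR libraries were above all 4 WT libraries, and its log2 fold change for the mean of both lines was 0.81 ± 0.35, with an unadjusted p of 0.0537 from limma. PALB2 (chr16:23603160-23641310, minus strand) departed from the other 4, with 9.77 and 10.2 FPKM in HepG2 WT, 10.9 and 4.38 in HepG2 SR, 5.45 and 10.5 in Huh7 WT and 5.95 and 9.58 in Huh7 SR. Its low values were in HepG2 SR replicate 2 and both replicate 1 libraries of Huh7, the 3 libraries outside the first expression profile. For the mean of both lines PALB2 had a log2 fold change of -0.23 ± 0.37. BARD1 ranged from 0.889 to 3.90 FPKM.

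**Figure D3:**
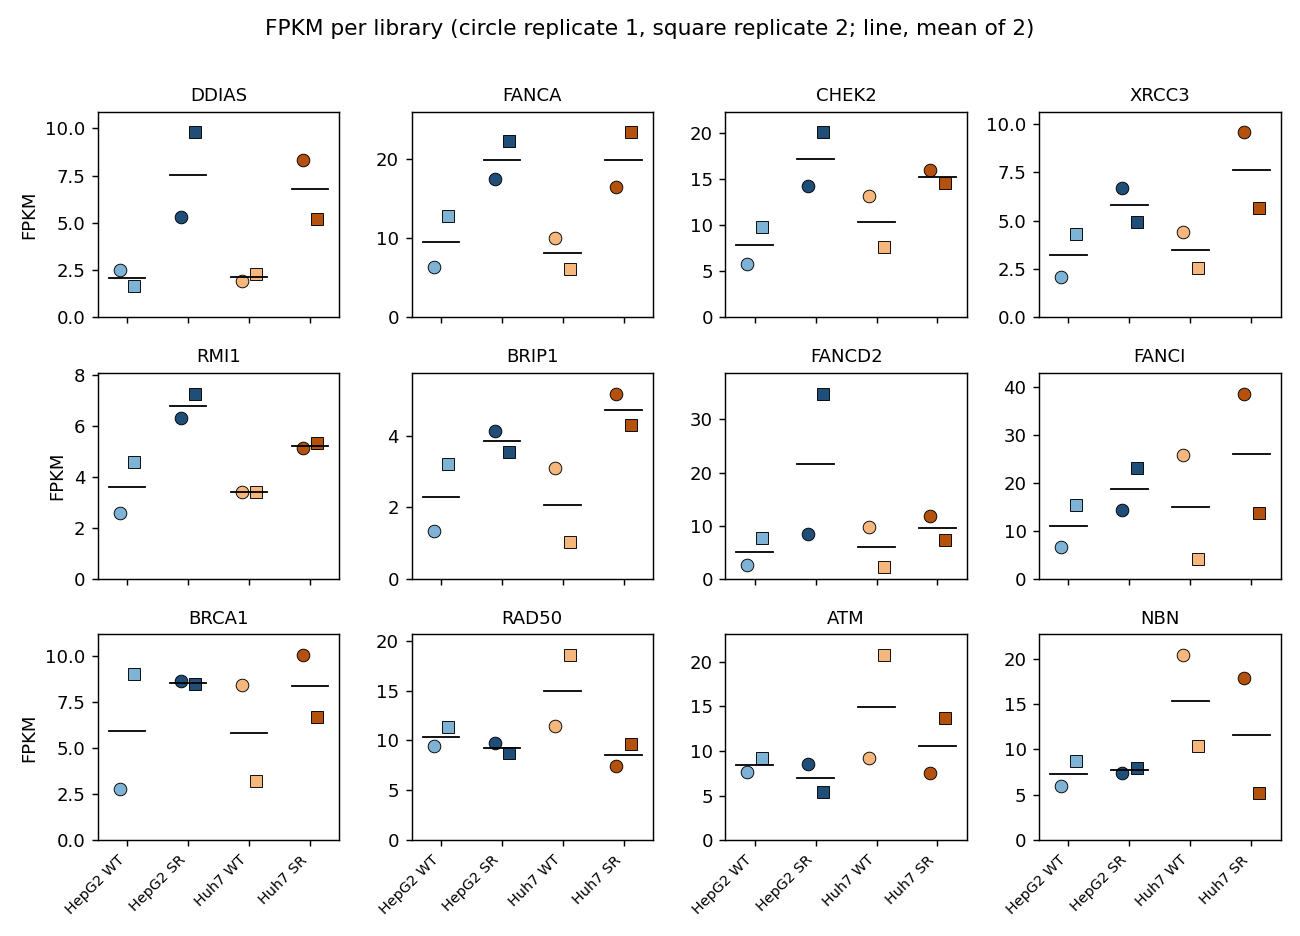
FPKM of 12 repair genes in each library (vertical axis from 0; circles replicate 1, squares replicate 2; horizontal lines are means of 2) by group. For DDIAS, FANCA, CHEK2, XRCC3, RMI1 and BRIP1 all SR points lie above all WT points, whereas BRCA1, FANCI, ATM and NBN overlap between SR and WT.

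The partners of strand exchange had the largest median among the roles with more than 2 genes, 0.76 on the log2 scale for the mean of both lines. RAD51B, RAD51C, RAD51D, XRCC2 and XRCC3 are recombinase paralogs that form complexes with each other, RAD51AP1 stimulates strand invasion, and RAD54L and RAD54B are motor proteins that remodel the joined DNA. XRCC3 (ENSG00000126215, chr14:103697609-103715504, minus strand) was the only one of the 8 called. It had 2.10 and 4.33 FPKM in HepG2 WT replicates 1 and 2, 6.70 and 4.91 in HepG2 SR, 4.39 and 2.57 in Huh7 WT and 9.57 and 5.65 in Huh7 SR. The 4 SR libraries were all above the 4 WT libraries, with group means of 3.21 ± 1.58 and 5.81 ± 1.26 FPKM (SD, n = 2) in HepG2 and 3.48 ± 1.29 and 7.61 ± 2.77 in Huh7. XRCC3 had a log2 fold change of 0.83 ± 0.33 (SE) for the mean of both lines, with an unadjusted p of 0.0394 from limma. After rescaling to a common sum (TPM) it was 0.75 and not called. The call was lost without HepG2 WT replicate 1 (0.64), HepG2 SR replicate 1 (0.74), HepG2 SR replicate 2 (0.93), Huh7 WT replicate 2 (0.68) or Huh7 SR replicate 1 (0.67).

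XRCC2 (ENSG00000196584, chr7:152644779-152676165, minus strand), whose window is printed above, had 1.14 and 3.19 FPKM in HepG2 WT replicates 1 and 2 and 3.97 and 9.16 in HepG2 SR. Huh7 WT was at 5.32 and 0.742 and Huh7 SR at 6.84 and 5.26. RAD51AP1 (chr12:4538798-4560048, plus strand) had 3.28 and 7.12 FPKM in HepG2 WT, 10.2 and 16.5 in HepG2 SR, 11.9 and 2.60 in Huh7 WT and 19.5 and 8.97 in Huh7 SR. Both genes separated the HepG2 groups, and in Huh7 the replicate 1 WT library lay above the replicate 2 SR library. The log2 fold change for the mean of both lines was 1.16 ± 0.51 (SE) for each of XRCC2 and RAD51AP1, with unadjusted p-values of 0.0557 and 0.0574 from limma. RAD54B was spread from 0.729 to 8.60 FPKM and RAD54L from 1.71 to 9.81, with fold changes of 0.78 ± 0.58 and 0.74 ± 0.46. The 3 remaining paralogs differed least between SR and WT, at 0.34 ± 0.32 for RAD51C, -0.01 ± 0.29 for RAD51B and -0.06 ± 0.33 for RAD51D.

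In the FA core complex and its anchor FANCM, 1 of 8 genes was called. FANCA (ENSG00000187741, chr16:89737549-89816657, minus strand), a scaffold of the complex, had 6.31 and 12.7 FPKM in HepG2 WT replicates 1 and 2 and 17.4 and 22.2 in HepG2 SR. In Huh7 it had 9.97 and 6.15 in WT and 16.4 and 23.3 in SR. Every SR library exceeded every WT library, and the group means were 9.52 ± 4.54 and 19.8 ± 3.40 FPKM (SD, n = 2) in HepG2 and 8.06 ± 2.70 and 19.8 ± 4.90 in Huh7. FANCA had a log2 fold change of 1.04 ± 0.45 (SE) in HepG2, with an unadjusted p of 0.0534 from limma, and 1.21 ± 0.45 in Huh7, with an unadjusted p of 0.0309. Over both lines it averaged 1.13 ± 0.32, with an unadjusted p of 0.00954 from limma, and this call held with each library left out in turn (0.90 to 1.36). FANCA was also called in HepG2 without HepG2 WT replicate 2 (1.50). The Huh7 call was lost without Huh7 WT replicate 2 (0.90) or Huh7 SR replicate 2 (0.97). Without both low WT libraries the mean of both lines was 0.75 and was not called.

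The other core genes did not move as a unit. FANCG, which lies beside FANCA in the complex, ranged from 1.99 FPKM in HepG2 WT replicate 1 to 16.9 in Huh7 SR replicate 1, and its log2 fold change for the mean of both lines was 0.88 ± 0.53 (SE). FANCM, a translocase that anchors the complex on DNA, had a fold change of 0.48 ± 0.31. FANCB and FANCC were highest in the replicate 1 libraries of Huh7, at 3.19 and 3.85 FPKM for FANCB, against 0.287 to 1.10 elsewhere, and at 10.1 and 11.0 for FANCC, against 2.73 to 4.66. FANCL, the ubiquitin ligase subunit, ranged from 11.0 to 20.9 FPKM, with a fold change of 0.10 ± 0.28. FANCF (chr11:22622890-22625841, minus strand), an adaptor, had 6.88 and 6.53 FPKM in HepG2 WT replicates 1 and 2, 6.54 and 4.12 in HepG2 SR, 5.65 and 5.18 in Huh7 WT and 6.69 and 4.91 in Huh7 SR, a log2 fold change of -0.12 ± 0.26. FANCE ranged from 2.83 to 6.31 FPKM (0.11 ± 0.29).

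FANCD2 and FANCI, the ID2 pair that the core complex ubiquitinates, had a median log2 fold change of 1.09 for the mean of both lines, and neither was called. FANCD2 (ENSG00000144554, chr3:10026414-10101930, plus strand) had 2.66 and 7.60 FPKM in HepG2 WT replicates 1 and 2 and 8.36 and 34.9 in HepG2 SR. The Huh7 libraries had 9.74 and 2.26 in WT and 11.8 and 7.33 in SR. A single library, HepG2 SR replicate 2, stood far above the other 7, and the HepG2 SR mean was 21.6 ± 18.7 FPKM (SD, n = 2). The log2 fold change of FANCD2 was 1.71 ± 0.85 (SE) in HepG2 and 0.81 ± 0.85 in Huh7, with unadjusted p-values of 0.0857 and 0.376 from limma. FANCI (chr15:89243949-89317261, plus strand) had 6.53 and 15.4 FPKM in HepG2 WT, 14.4 and 23.1 in HepG2 SR, 25.8 and 4.10 in Huh7 WT and 38.6 and 13.6 in Huh7 SR. FANCI overlapped between SR and WT in both lines (0.92 ± 0.62 for the mean of both), and in Huh7 its value went from 1.04 to -0.15 without Huh7 WT replicate 2. Between Huh7 libraries that share an expression profile, FANCI was higher in SR than in WT, at 38.6 against 25.8 and at 13.6 against 4.10. HepG2 WT replicate 2, in the same profile as Huh7 SR replicate 2, was above it at 15.4.

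Among the genes that dissolve or cut joined molecules, RMI1 was called. BLM is a helicase that works with TOP3A, RMI1 and RMI2 to separate joined duplexes without a crossover, EME1 is a subunit of a structure-selective nuclease, and SLX4 is a scaffold for such nucleases. RMI1 (ENSG00000178966, chr9:83980711-84004074, plus strand) had 2.60 and 4.60 FPKM in HepG2 WT replicates 1 and 2, 6.30 and 7.26 in HepG2 SR, 3.40 and 3.39 in Huh7 WT and 5.12 and 5.32 in Huh7 SR. The 4 SR libraries were above the 4 WT libraries, with group means of 3.60 ± 1.42 and 6.78 ± 0.68 FPKM (SD, n = 2) in HepG2 and 3.39 ± 0.0026 and 5.22 ± 0.14 in Huh7. RMI1 had a log2 fold change of 0.65 ± 0.26 (SE) for the mean of both lines, with an unadjusted p of 0.0416 from limma. This call was close to the threshold and was lost with any library left out other than HepG2 WT replicate 2 (0.49 to 0.69 in the 7 cases).

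EME1 (ENSG00000154920, chr17:50373220-50381483, plus strand) had 2.29 and 14.4 FPKM in HepG2 WT replicates 1 and 2 and 11.7 and 19.1 in HepG2 SR. In Huh7 it had 8.77 and 3.10 in WT and 15.0 and 14.0 in SR. Its groups separated in Huh7 and overlapped in HepG2, and its log2 fold change for the mean of both lines was 1.23 ± 0.55 (SE), with an unadjusted p of 0.0609 from limma. RMI2 followed another pattern: 20.2 and 50.2 FPKM in HepG2 WT, 41.5 and 12.2 in HepG2 SR, 6.71 and 5.98 in Huh7 WT and 9.21 and 41.0 in Huh7 SR. The log2 fold change of RMI2 was -0.47 ± 0.85 in HepG2 and 1.50 ± 0.85 in Huh7, and the difference between the lines was 1.97 ± 1.20, with an unadjusted p of 0.145 from limma. BLM had a fold change of 0.97 ± 0.54, while SLX4 (0.10 ± 0.29) and TOP3A (0.05 ± 0.28) differed little and stayed between 1.48 and 5.36 FPKM.

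DDIAS (ENSG00000165490, chr11:82899975-82958277, plus strand), a gene known as a DNA damage-induced apoptosis suppressor, had the smallest unadjusted p among the 39 genes in each line and for their mean. It had 2.52 and 1.64 FPKM in HepG2 WT replicates 1 and 2, 5.30 and 9.79 in HepG2 SR, 1.92 and 2.31 in Huh7 WT and 8.35 and 5.22 in Huh7 SR. The lowest SR library was at 5.22 and the highest WT library at 2.52, and the group means were 2.08 ± 0.63 and 7.55 ± 3.18 FPKM (SD, n = 2) in HepG2 and 2.12 ± 0.27 and 6.78 ± 2.21 in Huh7. The log2 fold change of DDIAS was 1.44 ± 0.43 (SE) in HepG2 and 1.29 ± 0.43 in Huh7, with unadjusted p-values of 0.0132 and 0.0208 from limma. Over both lines it averaged 1.36 ± 0.31, with an unadjusted p of 0.00311 and an adjusted p of 0.998 from limma. The call for the mean of both lines held with each library left out in turn (1.17 to 1.56) and without both low WT libraries (1.51). The HepG2 call was lost without HepG2 WT replicate 2 (1.23) or HepG2 SR replicate 2 (1.05), and the Huh7 call without Huh7 WT replicate 1 (1.20) or Huh7 SR replicate 1 (1.0). DDIAS differed from most of the 39 genes in that its levels in HepG2 WT replicate 1 and Huh7 WT replicate 2 were the higher of each WT pair.

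Neither the labelled line nor a difference of the SR effect between lines gave a call among the repair genes. In Huh7 versus HepG2, 0 of 39 were called, where 4.9% of all genes were, and the smallest unadjusted p was 0.0890, for ATR (log2 fold change 0.48 ± 0.24, SE). For the SR effect in Huh7 minus that in HepG2, 0 of 39 were called, where 0.606% of all genes were, and RMI2 had the smallest p, 0.145. Limma left 0 genes at an adjusted p under 0.05 in both comparisons, and 0 of the 39 had an unadjusted p under 0.05. With 1 library left out, calls rose to at most 4 for the lines (without Huh7 SR replicate 2) and 1 for the difference (without Huh7 SR replicate 1). The replicate 1 libraries of Huh7 were the 2 highest for 7 of 39 genes (17.9%), near the 16.7% of all genes. The 7 were NBN, CHEK1, BARD1, FANCB, FANCC, FANCI and SLX4. Huh7 WT replicate 2 was highest for 6 of 39 genes (15.4%), RAD50, RBBP8, ATM, RAD51B, FANCE and TOP3A, against 19.6% of all genes. Neither count sets the repair genes apart.

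Cell-cycle markers moved with the repair genes. The 12 S phase markers, among them the MCM helicase genes, had a median FPKM of 8.83 and 14.1 in HepG2 WT replicates 1 and 2, 25.2 and 40.2 in HepG2 SR, 13.4 and 7.62 in Huh7 WT and 37.4 and 15.4 in Huh7 SR. The 12 G2 and M phase markers had medians of 13.0 and 39.9 in HepG2 WT, 47.9 and 58.3 in HepG2 SR, 41.3 and 7.69 in Huh7 WT and 50.0 and 36.9 in Huh7 SR. Both lists were lowest in the same 2 WT libraries as the repair genes. These were the 2 lowest for 8 of 12 S phase and 12 of 12 G2 and M phase markers, and for 5.75% of all genes. For the mean of both lines the median log2 fold change was 1.28 in S phase markers and 1.09 in G2 and M phase markers. Of these, 8 of 12 and 2 of 12 were called higher, where 1.9% of all genes were. In bulk RNA, fewer cells in a phase and less RNA per cell cannot be told apart, and the part of these markers in the changes of the repair genes was not tested. The median of all 15173 tested genes stayed between 5.95 and 7.31 FPKM in the 8 libraries.

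**Figure D4:**
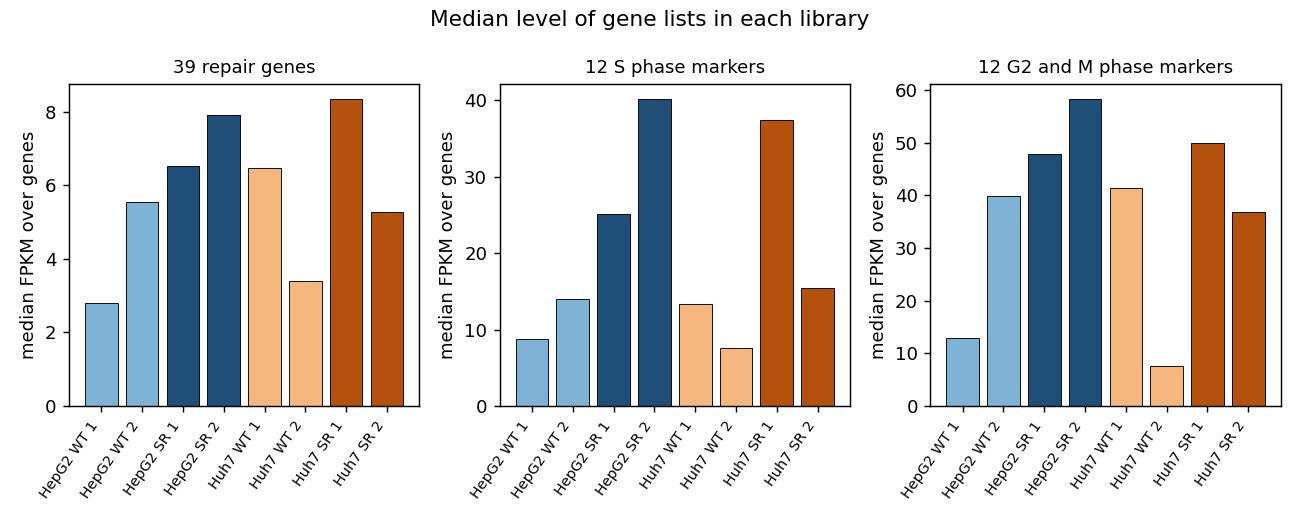
Median FPKM (bars, from 0) of the 39 repair genes, 12 S phase markers and 12 G2 and M phase markers in each library, coloured by group. All 3 lists are lowest in HepG2 WT 1 and Huh7 WT 2, at 2.81 and 3.39 for the repair genes, 8.83 and 7.62 for the S phase markers and 13.0 and 7.69 for the G2 and M phase markers.

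Of 60 other genes of homologous recombination and the FA pathway 59 were tested (DMC1 was not), and their median log2 fold change for the mean of both lines was 0.13, with 37 of 59 above 0. CENPX, TONSL, H2AX and RAD9A were called higher in Huh7 and for the mean of both lines, at 0.89, 0.90, 0.77 and 0.90 for the latter. These 4 of 59 (6.78%) compare with 0.942% of all genes called higher in Huh7 and 1.9% for the mean, and 0 of 59 were called lower. The difference between these genes and the 39 was not tested. CENPX is a DNA-binding partner of FANCM, TONSL acts at stalled forks, H2AX is the histone that is phosphorylated beside breaks and RAD9A belongs to the checkpoint clamp. USP1, the enzyme that removes ubiquitin from FANCD2, was the 1 of 59 called higher in HepG2 (0.877% of all genes), with 8.88 and 14.6 FPKM in WT replicates 1 and 2 and 21.1 and 31.0 in SR, and had 19.3 and 21.6 in Huh7 WT and 20.2 and 14.1 in Huh7 SR. USP1 had a log2 fold change of 1.10 ± 0.39 (SE) in HepG2 and -0.26 ± 0.39 in Huh7, and the difference of -1.36 ± 0.56 had an unadjusted p of 0.0457 and an adjusted p of 0.9998 from limma. The 10 end-joining genes, whose pathway repairs breaks without a template, had a median of 0.13 and 0 of 10 were called. For the mean of both lines 1.9% of all genes were called higher and 2.03% lower. HepG2 WT replicate 1 and Huh7 WT replicate 2 were the 2 lowest libraries for 12 of the 59 other pathway genes and for 0 of the 10 end-joining genes. Over all genes this held for 5.75%.

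Exons of 23 of the 39 genes overlap another gene in GENCODE release 29, among them FANCA with ZNF276, CHEK2 with HSCB, XRCC3 with KLC1, ATM with NPAT, EME1 with LRRC59, FANCI with POLG and DDIAS with PRCP, all on opposite strands, and CHEK1 with STT3A on the same strand. Use of strand in the counting is not stated, so reads of these pairs may have been shared, and their values are uncertain to that extent. BRCA2, XRCC2, RAD51AP1, RMI1, NBN and BRIP1 had no such overlap.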

How the data were processed

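Polyadenylated RNA was enriched with oligo(dT) beads, and libraries were prepared with an NEBNext Ultra kit, 2 for WT and 2 for SR cells of each line. The authors deposited FPKM values for each library without pooling replicates. The submitters' processing notes name fastp 0.20.0 and GRCh38. The aligner, the counting tool and the annotation are not given in the sources used here, and any share of multimapped or overlapping reads is carried into every value. The authors state that they tested with edgeR, which needs counts, so limma 3.58.1 in R 4.3.3 took its place.

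Samples were grouped by their labels alone. The 15173 genes that reached an FPKM of 1 in 2 or more libraries were tested as log2(FPKM + 1), with lmFit and eBayes with trend, in 1 model with the 4 group means as coefficients, and p-values were adjusted by Benjamini-Hochberg over all of them. A pseudocount of 1 understates the change of low genes. All 39 repair genes passed the filter. The repair genes and the other lists were chosen with earlier results of these data known, so no test was made on a list. Values in every library are given for repair genes called in any SR comparison, for the 5 with the largest mean change in each direction, and for BRCA1, BRCA2, FANCD2, FANCI, CHEK1 and ATM. Library values and results with a library left out are not shown for CENPX, TONSL, H2AX and RAD9A. BRIP1 and RMI2, outside that rule, were added after their values were seen.

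Replicate numbers were checked for pairing by the correlation of same-numbered deviations from the group means. This was 0.12 in HepG2 and 0.80 in Huh7, with 1 independent value per line, so the numbers were not taken to pair libraries. Alternatives were a pseudocount of 0.1, a filter at 0.1 or none, rescaling to a common sum (TPM), quantile normalization, each line fitted alone, the replicate block, eBayes without trend, the expression profile as a term and each library left out. Leaving out both low WT libraries was added after seeing the data. The pipeline was tested on simulated data.

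FPKM values carry no totals. Depth was estimated from the steps between low values of genes with a single transcript, as the best match to whole fragments in a search. That match was weak. Only 6.44% to 12.5% of the values lay within 0.02 of a whole fragment, the fewest in HepG2 WT replicate 2. No interval or read count was derived from the estimate. Gene positions are from GENCODE release 29 (GRCh38), which holds 58228 of the 63241 identifiers. Promoter windows are from RefSeq (GRCh38.p14). Counts and medians were computed with pandas 2.3.3 and NumPy 2.4.6 in Python 3.11.15, and plots were drawn with matplotlib 3.10.9.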

Additional observations from a re-analysis of the deposited data

Results flagged for a closer look

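Each of the 39 genes was examined as log2(FPKM + 1) in the 4 WT and the 4 SR libraries. This gave 78 groups of 4 libraries. In 2 of them a library's gap to its nearest neighbour, as a share of the group's range, exceeded Dixon's 95% critical value. Chance gives about 1 in 20. Levels below are printed as FPKM, a scale on which these shares differ and which was not used for the count. PALB2 had 5.45 FPKM in Huh7 WT replicate 1, against 9.77 to 10.5 in the other 3 WT libraries. BARD1 had 3.90 FPKM in Huh7 SR replicate 1, against 2.25 to 2.41 in the other 3 SR libraries. Both libraries belong to the expression profile that the replicate 1 libraries of Huh7 share.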

How the results depend on the processing

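The numbers of repair genes called in HepG2, Huh7 and the mean of both lines (2, 2 and 5) were 10, 5 and 15 with the replicate block, and the numbers of all genes called (325, 283 and 596) were then 1392, 669 and 1509, with 535 rather than 92 for the difference between lines. The block added, for the mean, RAD51AP1, BRIP1, FANCI, FANCD2, EME1, EXO1, XRCC2, RAD54B, BLM and FANCG, all higher. With the expression profile as a term 1, 7 and 6 repair genes were called, with 1300 genes in Huh7, 1283 for the mean and 280 for the difference. Rescaling to a common sum gave 1 repair gene, DDIAS, in HepG2 and 3 for the mean, CHEK2, DDIAS and FANCA. It shifted the median of all genes to -0.10, -0.12 and -0.12. XRCC3 (0.75) and RMI1 (0.57) were then not called for the mean, nor CHEK2 (0.97) in HepG2. The summed FPKM before rescaling was 411763 to 429111 in the SR libraries and 384792 to 403905 in the WT libraries. HepG2 fitted alone gave 1 repair gene, DDIAS, and Huh7 alone 124 genes. A filter at 0.1 gave 504 genes in HepG2 and 254 for the difference, and no filter gave 168 for the latter. Without both low WT libraries 0, 0 and 1 repair genes and 56, 104 and 157 genes were called, with 24 for the difference and 433 for Huh7 versus HepG2. At an adjusted p under 0.05, 0 were called in every comparison.

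With 1 library left out at a time, a group left with 1 library was assumed to vary like the others. Repair genes called ranged from 0 (without HepG2 SR replicate 2) to 3 in HepG2, from 1 to 7 (without Huh7 WT replicate 1) in Huh7, and from 2 to 14 (without Huh7 WT replicate 1) for the mean, where the 2 were left without HepG2 WT replicate 1, HepG2 SR replicate 2, Huh7 WT replicate 2 or Huh7 SR replicate 1. For the difference between lines they ranged from 0 to 1, and for Huh7 versus HepG2 from 0 to 4. All genes called ranged from 58 to 1744 in HepG2, 153 to 816 in Huh7, 190 to 1278 for the mean, 23 to 944 for the difference and 232 to 1716 for Huh7 versus HepG2. Repair genes whose SR and WT libraries did not overlap, in either direction, ranged from 6 to 11. With 4 libraries against 3 a separation is easier to reach, and the share over all genes was not computed for it. The median change of the repair genes ranged from 0.17 (without HepG2 WT replicate 1) to 0.85 in HepG2, from 0.13 (without Huh7 WT replicate 2) to 0.77 in Huh7 and from 0.33 to 0.65 for the mean. The causes of these differences were not tested. With 2 libraries per group, a missed threshold does not show that SR and WT levels were equal.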
